A study of Mus musculus with 30 samples.

Results

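Cohesin regions private to BORIS cells are places where all 3 cohesin antibodies gave a called region in fibroblasts expressing BORIS and none of them did in the control fibroblasts. They were chosen by the deposited region calls themselves. On chromosomes 1 to 19, any overlapping or touching regions of the 6 cohesin lists were fused into 1 merged region, which was kept when it held a region of each of the 3 BORIS lists and of no empty-vector list. This gave 3544 of 146915 merged regions. For comparison, 2371 merged regions were private to empty-vector cells by the mirrored rule, and 50858 were called in all 6 lists.

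The ChIP-seq lists came from NIH3T3, an immortalized mouse embryonic fibroblast line. One line stably carried a control CpG-free plasmid (the empty vector, EV), which expresses beta-galactosidase. The other was clone 2 of cells stably expressing BORIS from a CpG-free plasmid, so that BORIS, the clone and its history cannot be told apart. Each line was assayed once with an antibody against SMC1 (Bethyl A300-055A), RAD21 (Abcam ab217678) and SMC3 (Abcam ab9263), on chromatin crosslinked with formaldehyde and sheared to 200 to 600 bp. Lists of Snf2h regions came from another cell type, the mouse B lymphoma line CH12, as wild type and as a mutant lacking zinc fingers 9 to 11 of CTCF on both alleles through Cas9 editing. Every group had 1 list, and the names of both Snf2h lists carry a tag that may stand for pooled replicates, so no difference has a replicate check and no p-value is given. Intervals are exact (Clopper-Pearson) 95% binomial intervals that cover counting error only, and neighbouring regions are not independent.

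Cohesin is a ring whose arms are the SMC1 and SMC3 proteins and whose gate is closed by RAD21. The ring holds sister chromatids together and extrudes chromatin loops, which often end where CTCF is bound in a given orientation, because the N-terminal part of CTCF holds cohesin in place. BORIS (CTCFL) is a paralogue of CTCF that is normally made in the testis and appears in some tumours. Its zinc fingers read much the same DNA as those of CTCF, while its N-terminal part differs. Snf2h is the motor of ISWI remodellers, which space nucleosomes and are needed for CTCF to bind many of its sites.

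The rule selects on presence and absence of calls, so the strength of these regions is a description and not a finding. The BORIS-private regions made up 2.41% of all merged regions, the empty-vector-private regions 1.61% and the regions of all 6 lists 34.6%. Each BORIS list gave only a small part of itself to the class. This was 3.58% of the SMC1 list, 4.46% of the RAD21 list and 3.40% of the SMC3 list. Nearly every private region held a single region of each list, and more than 1 was found in 34 of them for SMC1, in 32 for RAD21 and in 27 for SMC3.

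The regions just outside the rule outnumbered those inside. Another 3294 merged regions were called in all 3 BORIS lists and in 1 empty-vector list. That single call was made with SMC3 in 1563 cases, with SMC1 in 1231 and with RAD21 in 500. It was weak, with a median percentile by −log10 p of 26.6 in the empty-vector SMC3 list, 25.4 in the SMC1 list and 22.9 in the RAD21 list. A further 6716 merged regions were called in 2 BORIS lists and in no empty-vector list. In 4906 of these the missing list was RAD21, against 1285 for SMC1 and 525 for SMC3, so the RAD21 list, the shortest of the 3, most often decided whether a region entered the class. Just inside the rule, 101 private regions (2.85%) had an empty-vector region within 100 bp that did not touch them, the closest of them 2 bp away. No empty-vector region lay within 1 kb of 2814 private regions (79.4%).

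The private regions were weak to middling in all 3 BORIS lists, and weakest for RAD21. Their median percentile by −log10 p was 45 in the SMC1 list, 30.4 in the RAD21 list and 51.0 in the SMC3 list. The lowest of the 3 percentiles was that of RAD21 in 2298 regions (64.8%), and the highest was that of SMC3 in 1915 (54.0%). None of the 3544 was among the strongest 10% of the RAD21 list, which by a floor of 3 counts allows a share of up to 0.0847%, whereas 4 were in that part of the SMC1 list and 2 in that of the SMC3 list. Their strength resembled that of the regions just outside the rule, whose lowest percentile had a median of 23.7 with 1 empty-vector call and 23.0 with 2, against 24.2 in the private regions. Regions of all 6 lists stood apart with a median of 61.8.

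**Figure D1:**
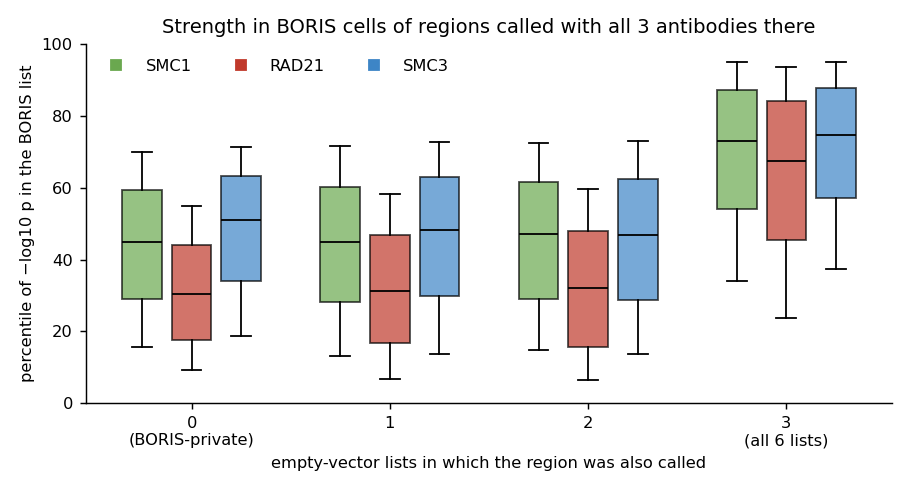
Percentile of −log10 p in the SMC1, RAD21 and SMC3 lists of BORIS cells (vertical axis, percent of the list) for regions called with all 3 antibodies there, by the number of empty-vector lists that also called them. Boxes span the quartiles with the median as a line, and whiskers reach the 10th and 90th percentiles of the regions. Regions with 0, 1 or 2 empty-vector calls lie at similar heights with RAD21 lowest (median 30.4 in the private class), and those of all 6 lists lie higher.

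The reads behind these calls were few. The summit of a region is where its fragments pile up highest, and their number there was recovered from the deposited fold and −log10 p. SMC1 had a median pileup of 16 fragments (quartiles 13 and 21), RAD21 of 13 (11 and 16) and SMC3 of 18 (14 and 23). The deposited fold, which is the pileup plus 1 over the local background plus 1, had medians of 6.33, 5.58 and 6.95. Empty-vector regions just past the calling threshold (−log10 q under 1.5) had median pileups of 11 (SMC1), 12 (RAD21) and 9 (SMC3) fragments, over backgrounds that gave a median fold of 2.48, 2.48 and 2.75. These bare calls stood on higher backgrounds, so their pileups and those of the private regions are not on one footing. By −log10 q the private regions were mostly past the threshold by a margin, with medians of 8.91, 6.47 and 11.0, and 14 of them were under 2 for RAD21. Only 458 private regions (12.9%, interval 11.8 to 14.1) had a −log10 q of at least 10 with every antibody, against 64.1% (63.7 to 64.5) of the regions of all 6 lists. The estimated depth was similar over the 6 cohesin libraries, 7.43 to 8.79 fragments per kb of genome.

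Antibodies ordered the private regions less alike than they ordered the shared ones. Across the private regions, Spearman's rho between percentiles was 0.394 for SMC1 with RAD21, 0.454 for RAD21 with SMC3 and 0.551 for SMC1 with SMC3. Across the regions of all 6 lists these values were 0.800, 0.876 and 0.874. The private class spans a narrower range of strength, and that share of the difference was not tested. These correlations run across regions of the same 3 libraries, which are not independent replicates. Within a private region the 3 percentiles differed by a median of 26.5 points, from the lowest antibody to the highest.

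Private regions were narrower than shared ones. Their merged width had a median of 217 bp (quartiles 186 and 264) and ran from 127 to 852 bp. Regions up to 300 bp wide made up 84.4% (interval 83.2 to 85.6) of the class, against 70.2% (68.3 to 72.1) of the empty-vector-private regions, 59.9% of all merged regions and 17.8% (17.5 to 18.1) of the regions of all 6 lists. Regions of 2 or 1 BORIS lists and no empty-vector list were narrower still, with 93.7% and 98.9%. A merged region of 6 lists is wider partly by construction, so width within 1 list is the fairer measure. There the private regions had a median width of 169 bp for SMC1, 154 bp for RAD21 and 186 bp for SMC3, and the regions of all 6 lists had 298, 290 and 338 bp in the same BORIS lists. The narrowest region a list could hold was 121 bp for SMC1 and 123 bp for RAD21 and SMC3, so many private regions were close to 1 fragment length.

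The summits of the 3 subunits fell together. From the first to the last of the 3 summits the span had a median of 34 bp (quartiles 21 and 52). In 93.9% of the private regions (interval 93.1 to 94.7) all 3 lay within 100 bp. Among regions up to 300 bp wide this share was 98.3% in the private regions and 99.1% in those of all 6 lists. It was 93.9% in the empty-vector-private regions of that width. No antibody pair stood apart, with median distances of 19 bp for SMC1 and SMC3, 21 bp for SMC1 and RAD21, and 21 bp for RAD21 and SMC3. The RAD21 summit lay between the others or level with one of them in 33.4% of the regions, the SMC1 summit in 36.1% and the SMC3 summit in 38.0%. Agreement rose with strength. In regions whose lowest percentile was under 10 the median spread was 50 bp and 51.4% (47.5 to 55.3) had the summits within 50 bp, and in those at 50 or above it was 28 bp and 85.9% (81.9 to 89.3).

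Against regions called in all 6 lists, the private regions had closer summits in each band of rank under 50, while with width held as well the order differed between bands. Over all strengths and widths, the 3 summits lay within 50 bp in 73.8% (72.4 to 75.3) of the private and 74.7% (74.3 to 75.1) of the shared regions, and within 100 bp in 93.9% and 87.5% (87.2 to 87.8). At a lowest percentile of 20 to 30, the share within 50 bp was 78.1% (74.9 to 81.1) in the private regions and 50.9% (49.3 to 52.4) in the shared ones. At 50 or above the shares within 50 bp were 85.9% and 89.0% (88.6 to 89.3). In the band of 20 to 30 and among regions up to 300 bp wide, the shares within 50 bp came together, at 81.9% (78.6 to 84.8) of the private and 80% (77.8 to 82.1) of the shared regions. In the band of 30 to 50 they were 85.6% (83.1 to 87.8) and 85.1% (83.8 to 86.4). The private share was higher in the band of 10 to 20, at 75.8% (72.5 to 78.9) against 69.9% (67.1 to 72.6), with intervals that overlap slightly. It was lower under 10, at 59.1% (54.7 to 63.3) against 66.9% (63.3 to 70.4), where the intervals just touch, and at 50 or above, at 87.5% (82.9 to 91.3) against 94.5% (93.6 to 95.3). Over all strengths at that width, the share within 50 bp was 78.0% (76.5 to 79.5) in BORIS-private and 84.2% (83.4 to 84.9) in shared regions. It was 70.0% (67.7 to 72.2) in empty-vector-private regions, with the summits of their own line. That last contrast is not matched for strength. The BORIS-private share was the higher in each band under 30. Empty-vector-private regions had the higher share at 30 to 50, at 88.4% (84.4 to 91.6), and at 50 or above, at 96.7% (88.5 to 99.6).

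**Figure D2:**
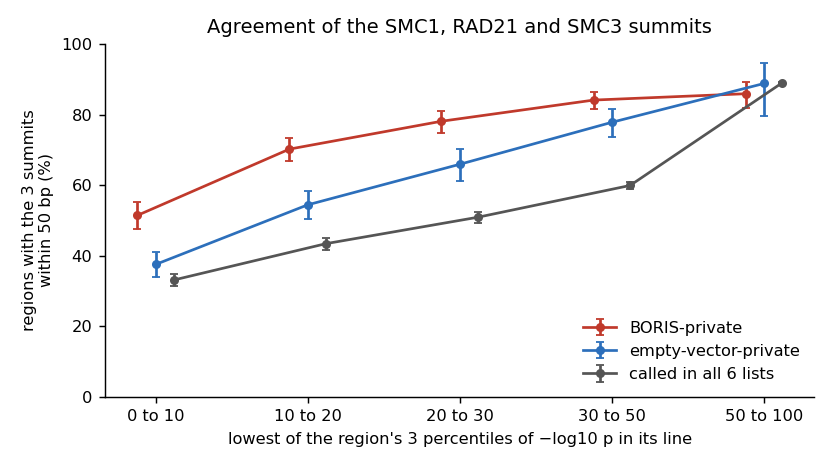
Share of regions whose SMC1, RAD21 and SMC3 summits lie within 50 bp of each other (vertical axis, percent), in bands of the lowest of the region's 3 percentiles (horizontal axis). Points are shares with exact 95% intervals, using BORIS summits for BORIS-private regions and regions of all 6 lists and empty-vector summits for empty-vector-private regions. BORIS-private regions rise from 51.4% to 85.9% and lie above the regions of all 6 lists, which are wider, in each band under 50.

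The strongest private regions show what the class looks like at its upper end. They are the 8 with the highest lowest-percentile among those with no empty-vector region within 1 kb. No gene or sequence is given for them, because the gene and promoter tables used here are of build GRCm38 and the lists are in coordinates of the older mouse build mm9. Of the 8, the region at chr5:31103589-31103966 ranked first. The SMC1 fold was 32.0, the RAD21 fold 17.3 and the SMC3 fold 30.0, with pileups of 78, 42 and 73 fragments. Its 3 summits lay within 30 bp, and the nearest empty-vector region, called in all 6 lists, was 4435 bp away. Its percentiles were 96.8 for SMC1 and 92.8 for SMC3 but 79.3 for RAD21.

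The second, chr1:173445192-173445617, had higher pileups but a higher local background. The pileups were 115 (SMC1), 63 (RAD21) and 99 (SMC3) over background rates of 6.32, 5.16 and 6.18 fragments, and with 1 added to each the folds were 15.9, 10.4 and 13.9. Its summits lay within 11 bp. In the first region the background was only 1.47, 1.48 and 1.46 fragments, so the 2 regions reached similar ranks from different surroundings. Both were strongest for SMC1.

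The region at chr4:140726087-140726413 was more even across subunits, with folds of 11.6 (SMC1), 16.5 (RAD21) and 13.4 (SMC3). Another private region lay 1744 bp from it. The region at chr6:89607979-89608692 had folds of 9.37, 17.7 and 16.0 in the same order, and it alone of the 8 overlapped a Snf2h region, in mutant CH12 cells only. At chr10:121163358-121163595 the folds were 10.3, 15.2 and 14.6. In these 3 regions RAD21 gave the highest fold, unlike in the class as a whole.

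The region on chromosome 6 was 714 bp wide, and the next ones were as broad, which is unusual for the class. At chr15:86558351-86559068, 718 bp wide, the pileups were 59 (SMC1), 46 (RAD21) and 53 (SMC3) and the summits lay within 10 bp. At chr5:148801863-148802646, 784 bp wide, the folds were 16.4, 13.7 and 19.3, and a further private region lay 18857 bp away. This second one was also the third widest of the class. The last of the 8, at chr3:13560910-13561307, was isolated. Its nearest empty-vector region was 229807 bp away and the nearest private region 2317172 bp, and over a low background of 1.02, 1.11 and 1.01 fragments its folds were 11.9, 16.6 and 16.9.

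The 2 widest private regions held summits that did not coincide, unlike the third at chr5:148801863-148802646, where the spread was 26 bp. At chr4:133823055-133823906, 852 bp wide, the SMC1 summit was at 133823158, and those of RAD21 and SMC3 were at 133823775 and 133823784, a spread of 626 bp. At chr11:65179152-65179960, 809 bp wide, the spread was 500 bp, and another private region lay only 127 bp away. Such regions were rare, since 98.4% (98.0 to 98.8) of the class had a spread of 200 bp or less.

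Private regions lay as near to shared cohesin regions as other cohesin regions did. The gap to the nearest region of all 6 lists had a median of 7644 bp (quartiles 2631 and 18998), and 57.6% (interval 56.0 to 59.3) of the private regions had one within 10 kb. The median gap between a region of all 6 lists and its own nearest neighbour of that kind was 7321 bp, with 58.3% (57.9 to 58.8) within 10 kb. Over the merged regions that were neither BORIS-private nor in all 6 lists the median was 7444 bp. Empty-vector-private regions lay farther out, with a median of 10924 bp and 47.3% (45.3 to 49.3) within 10 kb. At short range the private regions were sparser, with 10.5% (9.51 to 11.6) within 1 kb against 16.6% (16.4 to 16.9) of those other merged regions. Empty-vector-private regions had 10.8% (9.58 to 12.1), so this was not particular to the BORIS-private class. Regions called in no empty-vector list but in only 2 or 1 BORIS lists had 13.3% and 18.6%. The weakest private regions lay somewhat farther out. Within 10 kb of a region of all 6 lists were 52.8% (48.8 to 56.7) of those with a lowest percentile under 10. The share was 60.5% (57.4 to 63.6) at 30 to 50 and 59% (53.8 to 64) at 50 or above, where the interval overlapped that of the weakest. The median gap was 8706 bp for private regions with a lowest percentile under 10 and 7159 bp for those at 50 or above.

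Taken in genome order, the next merged region on either side of a private region was one of all 6 lists in 34.4% of cases, close to the 34.6% that these make up of all merged regions. For empty-vector-private regions this was 30.1%. The nearest region of any empty-vector list lay a median of 3567 bp from a private region. A few private regions lay in long stretches without shared cohesin. The farthest was chr14:92168196-92168365, 1847483 bp from a region of all 6 lists, with folds of 9.41 (SMC1), 5.23 (RAD21) and 7.95 (SMC3). Next came chr1:149405634-149405791 at 1811758 bp and chr14:94716483-94716639 at 1666648 bp. In all 3 the summits lay within 30 bp, on pileups of 9 to 18 fragments.

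**Figure D3:**
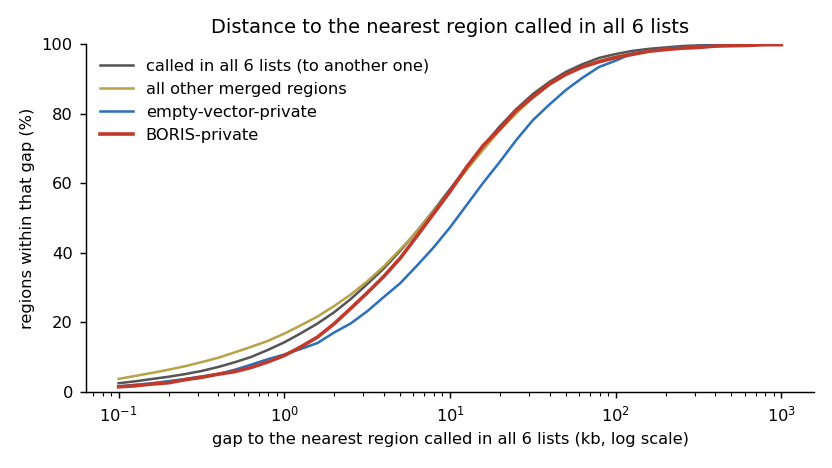
Cumulative share of regions (vertical axis, percent) by the gap to the nearest region called in all 6 lists (horizontal axis, kb, log scale), for BORIS-private regions, empty-vector-private regions, all other merged regions, and regions of all 6 lists to their nearest neighbour of that kind. The curve of BORIS-private regions (median 7644 bp) runs with those of shared and other regions above a few kb, and the empty-vector-private curve (median 10924 bp) lies to the right.

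Private regions were found near each other more often than their overall share, though most stood alone. Joining private regions with gaps of up to 20 kb put 766 of them (21.6%, interval 20.3 to 23.0) into 346 chains, of which 293 were pairs, 38 were triples and 15 were longer. The mirrored count in empty-vector-private regions, a smaller class, was 325 (13.7%). Of the merged regions directly next to a private one, 4.74% were private, against 2.41% of all merged regions. Empty-vector-private regions also had neighbours of their own kind more often than their share, 4.13% against 1.61%, so this is not particular to the BORIS-private class. Runs were short, with 155 runs of more than 1 adjacent private region and none over 3.

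The excess was also seen at longer range, though chromosomes differed in their private share. Among merged regions under 1 kb from a private region 4.36% were private, and among those 1 to 5 kb away 4.69%. The share was 4.78% at 5 to 20 kb and 4.39% at 20 to 100 kb, so it was nearly level up to 100 kb. At 1 to 5 Mb the share was 3.18%. These shares count a merged region once for each private region at that gap, whereas the 2.41% counts it once. The 2 are thus not on one footing, and the part of chromosome differences in the excess was not tested. Around empty-vector-private regions, 3.11% of the merged regions at 1 to 5 kb and 2.20% at 1 to 5 Mb were of that same kind. They were sparse around BORIS-private ones, with 0.663% at 1 to 5 kb and 1.15% at 1 to 5 Mb against 1.61% of all merged regions. The 2 kinds of private region thus lay partly in different stretches of the chromosomes.

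The longest chains had 5 private regions each, and there were 6 of them outside chromosome 18. The first 4 in genome order are described. At chr4:45113017-45145686, 5 of the 11 merged regions were private, 1 was called in all 6 lists and 3 in any empty-vector list, and the RAD21 folds of the 5 ran from 4.26 to 7.84. At chr4:129051252-129099058, 5 of 12 merged regions were private and the RAD21 folds ran from 4.54 to 10.5. At chr4:151273917-151305060, 5 of 11 were private, with RAD21 folds of 4.61 to 9.19. At chr11:53151583-53198472, 5 of 11 were private, with RAD21 folds of 3.72 to 5.83. None of these 20 regions overlapped a Snf2h region, but with a share of 2.12% in the class, 20 regions are too few to set the chains apart. At equal list lengths 16 of the 20 regions remained private (2 of the 5 in the third chain), against 75.6% of the whole class. When each list was limited to −log10 q ≥ 10, 2 of the 20 did, against 12.9% of the class.

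In bins of 1 Mb the number of private regions varied widely. Of 1803 bins with at least 20 merged regions, 648 held no private region and 209 held 5 or more. These 209 bins held 44.3% of the private regions and 20.2% of all merged regions, a description only, since they were picked for their private regions. They were rich in cohesin of any kind, with a median of 140 merged regions against 45 in bins with none. The bin with the highest share was chromosome 11 from 65000001 to 66000000, where 11 of 53 merged regions (20.8%, interval 10.8 to 34.1) were BORIS-private and none was empty-vector-private. On chromosome 4, the bins starting at 146000001 and 92000001 had 5 of 27 and 6 of 40.

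Signal at shared regions moved together with the private ones. The log2 ratio of BORIS to empty-vector pileup at regions of all 6 lists was below 0 genome-wide, with medians of −0.36 (SMC1), −0.34 (RAD21) and −0.28 (SMC3), and is given relative to these medians, so that a value above 0 does not by itself mean more fragments in BORIS cells. Within 1 kb of a private region the relative median was 0.15 (SMC1), 0.17 (RAD21) and 0.16 (SMC3) over 393 regions, which is −0.20, −0.17 and −0.12 without the centring. More than 500 kb from any private region it was −0.08 with each of the antibodies over 12559 regions. In the bin on chromosome 11, the relative medians over its 11 shared regions were 0.76 (SMC1), 0.67 (RAD21) and 0.39 (SMC3). The bin on chromosome 4 from 146000001 had 0.69, 0.67 and 0.35 over 5 shared regions, and the one from 92000001 had 0.74, 0.88 and 1.49 over only 2, so the antibodies differed within these bins. Without the centring the ratios in the 3 bins were also above 0, from 0.07 (SMC3, chromosome 4 from 146000001) to 1.21 (SMC3, chromosome 4 from 92000001), with 0.40, 0.33 and 0.11 in the bin on chromosome 11. Shared regions within 1 kb of private ones thus had a median ratio above the genome-wide one. Their spread was wide, with relative lower quartiles of −0.13 (SMC1), −0.10 (RAD21) and −0.08 (SMC3), so many of them lay below the genome-wide median. The part of this local shift in the private calls was not tested.

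By chromosome, the share of merged regions that were BORIS-private ran from 0.928% (interval 0.685 to 1.23) on chromosome 14 to 4.60% (4.21 to 5.02) on chromosome 4. The median RAD21 log2 ratio of shared regions, relative to that of all of them, was −0.38 on chromosome 14, the lowest of the 19, and 0.21 on chromosome 4, the highest. Without the centring these were −0.71 and −0.13, both below 0. Chromosomes 11 and 5 were next in private share, at 3.42% and 3.33%, with relative RAD21 ratios of 0.08 and 0.12. Chromosomes 8 and 12 followed chromosome 14 at the low end, at 1.16% and 1.25%, with −0.25 and −0.17. SMC1 and SMC3 ratios of these chromosomes differed from those of RAD21 by at most a few hundredths. The number of copies of each chromosome was not measured, and its part in these shares was not tested. Empty-vector-private regions had the opposite order, 5.28% on chromosome 14 and 0.673% on chromosome 4. Without chromosomes 4 and 14, 19.4% of the private regions were in chains.

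**Figure D4:**
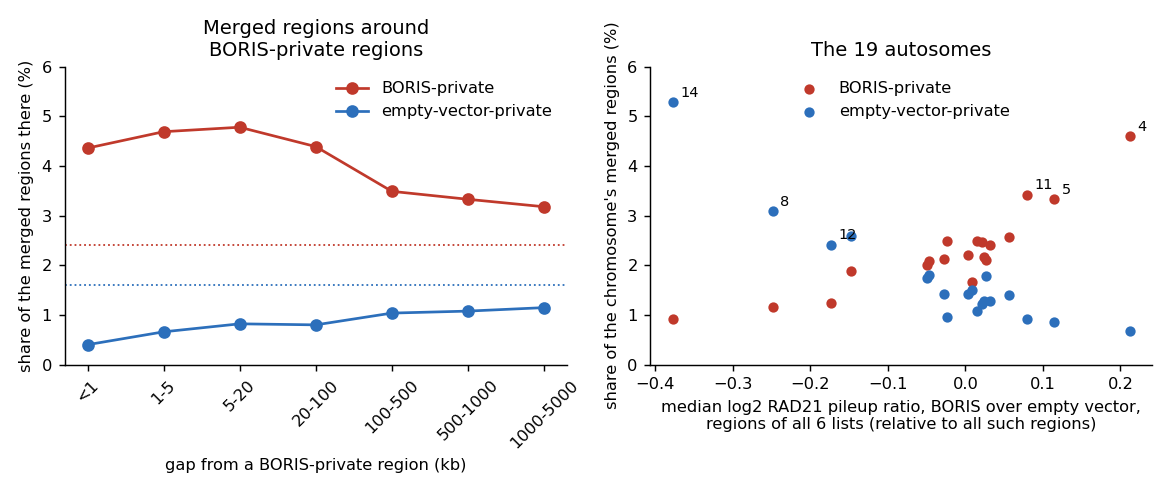
Left, share of merged regions (vertical axis, percent) that are BORIS-private or empty-vector-private, by their gap from a BORIS-private region (horizontal axis, kb). A merged region counts once for each BORIS-private region at that gap. Dotted lines mark the shares over all merged regions (2.41% and 1.61%), each counted once. Right, shares of both classes among the merged regions of each of the 19 autosomes, each region counted once. The horizontal axis is the median log2 ratio of BORIS to empty-vector RAD21 pileup at regions of all 6 lists, relative to its median over all such regions (−0.34). Chromosomes 4, 5, 8, 11, 12 and 14 are marked near their upper point. BORIS-private regions are most frequent close to each other and on chromosome 4, and empty-vector-private regions on chromosome 14.

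The Snf2h lists come from libraries that the rule did not use. Since Snf2h was mapped in B cells, overlap tells where a cohesin region of fibroblasts meets a remodeller region of another cell type. Of the private regions, 75 (2.12%, interval 1.67 to 2.65) overlapped a Snf2h region of either CH12 line by at least 1 bp, against 7.31% of all merged cohesin regions and 14.2% (13.9 to 14.5) of those of all 6 lists. Overlap with both CH12 lists was found at 28 private regions (0.790%, 0.526 to 1.14), against 2.36% of all merged regions. Another 31 (0.875%) overlapped only the mutant list and 16 (0.451%) only the wild-type list. Over all merged regions these shares were 3.27% and 1.68%, so the mutant list gave more in both.

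The overlap was also low at equal strength or at equal width. In bands of the lowest percentile it ran from 2.92% (1.77 to 4.53) in the weakest private regions to 1.36% (0.443 to 3.14) in the strongest, while regions of all 6 lists ran from 8.61% (7.60 to 9.70) to 17.2% (16.8 to 17.6) over the same bands. Among regions up to 300 bp wide, 1.71% (1.27 to 2.24) of the private and 4.76% (4.33 to 5.22) of the shared ones overlapped Snf2h. Counted at the RAD21 summit alone, the shares were 1.55% (1.17 to 2.02) and 10.0% (9.74 to 10.3). All these intervals were apart. With both strength and width held, the private share was 1.89% (0.982 to 3.28) against 4.77% (3.69 to 6.05) at a lowest percentile of 20 to 30, and 0.389% (0.00985 to 2.15) against 5.55% (4.76 to 6.43) at 50 or above. Under 20 the intervals overlapped, with 2.29% (1.19 to 3.97) against 4.75% (3.29 to 6.60) under 10.

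The private class did not stand alone in this. Empty-vector-private regions overlapped Snf2h at 2.91% (2.27 to 3.67), regions called in 2 BORIS lists only at 2.31% (1.96 to 2.70) and regions called in 1 BORIS list only at 2.46% (2.24 to 2.71). Their intervals overlapped that of the private regions. The share grew with the number of empty-vector lists that also called a region found with all 3 BORIS antibodies, from 2.12% with none to 4.25% (3.59 to 5.00) with 1, 6.61% (5.93 to 7.34) with 2 and 14.2% with 3. The first 3 of these classes were of similar strength in BORIS cells but of increasing width, with medians of 217, 247 and 295 bp.

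At longer range Snf2h was about as near to private regions as to shared ones. The nearest Snf2h region lay a median of 12612 bp from a private region, 13782 bp from a region of all 6 lists and 23981 bp from an empty-vector-private region. Within 1 kb a Snf2h region was found at 7.96% (7.09 to 8.90) of the private and 19.3% of the shared regions. For empty-vector-private regions this was 7% (6.01 to 8.1), an interval that overlaps that of the private regions. Within 5 kb it was found at 28.3% (26.9 to 29.8) of the private, 32.6% (32.2 to 33.0) of the shared and 19.3% (17.7 to 21.0) of the empty-vector-private regions.

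**Figure D5:**
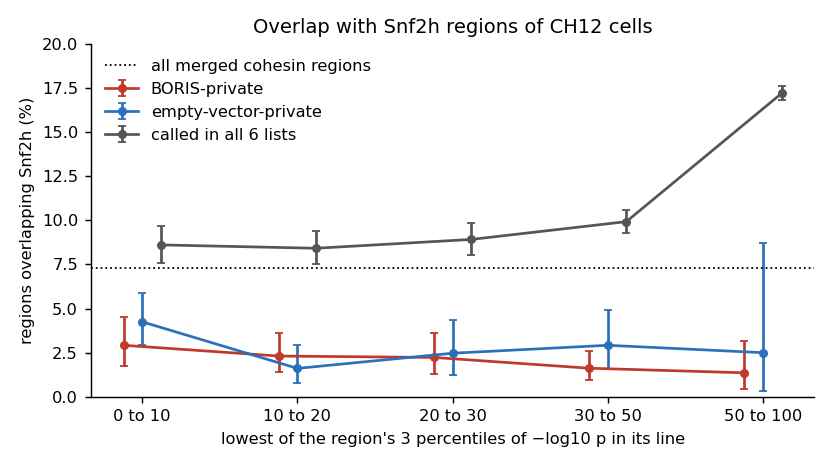
Share of regions that overlap a Snf2h region of wild-type or mutant CH12 cells (vertical axis, percent, with exact 95% intervals) in bands of the lowest of the region's 3 percentiles in its own line, or in BORIS cells for regions of all 6 lists (horizontal axis). The dotted line is the share over all merged cohesin regions (7.31%). Both private classes lie below it in each band as points, and regions of all 6 lists lie above.

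The 75 private regions with Snf2h were a little wider and closer to shared cohesin than the 3469 without. Their median width was 250 bp against 217 bp, and a region of all 6 lists lay a median of 4242 bp away against 7720 bp. Their lowest percentile was lower, 19.7 against 24.4, so they were not the strong end of the class. The Snf2h regions involved were of upper-middle strength in their own lists, with a median percentile of 61.9 in wild type (44 regions) and 61.5 in the mutant (59 regions), against 45 and 44.6 for Snf2h regions at shared cohesin. The distance from the Snf2h summit to the nearest RAD21 summit had a median of 87 bp in wild type and 75 bp in the mutant.

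The strongest private regions that overlapped Snf2h in both CH12 lines were 5 in number by rule. The first, chr15:73548146-73548540, had folds of 12.3 (SMC1), 8.13 (RAD21) and 12.3 (SMC3), and a region of all 6 lists lay 772 bp away. At chr13:67162537-67162806 such a region lay 258 bp away, and RAD21 was strongest there, with folds of 6.45, 10.5 and 7.77. At chr9:20801197-20801459 the folds were 7.08, 6.84 and 9.91, and shared cohesin lay 1329 bp away. At chr9:114548161-114548406 the folds were 10.8, 7.18 and 9.73, and an empty-vector region lay 527 bp away. A region of all 6 lists was 8120 bp from the second of these on chromosome 9. The most isolated was chr17:31029695-31029988, where no empty-vector region lay within 40105 bp and the folds were 10.4, 6.30 and 13.4. Cohesin called in all 6 lists thus lay nearer than the class median of 7644 bp in 3 of the 5.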

How the data were processed

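The authors deposited 1 narrowPeak list per sample, and each was used as it stands. Per the submitters' processing notes, the tools were Bowtie2, Bowtie, SAMtools, MACS2 and deepTools 3.5.0, with no roles given, and the mouse build was mm9. Caller settings, control and filters are not given in the sources used here. The deposited values were a score, a fold (the ratio of summit pileup to local background, which fits the values with 1 added to both), −log10 p and −log10 q per region, and were used only to describe, rank or filter regions within a list. Positions on chromosome 1 reached 197182423, past the last GRCm38 gene end (195291439), so no GRCm38 gene or sequence was attached. Printed coordinates count from 1.

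Merging, gaps, overlaps of at least 1 bp and percentiles were computed in Python 3.11.15 with numpy 2.4.6, pandas 2.3.3 and scipy 1.17.1. The best-ranked region of each list stood for a merged region. A percentile is the rank of −log10 p within a list on chromosomes 1 to 19. Pileups were solved from fold and −log10 p under a Poisson tail. They came out whole (tolerance 0.001 in −log10 p) at 100% of the summits below a −log10 p of 300. Depth is the lowest background rate over the narrowest region. The lists held 80268 to 105041 cohesin regions and 16793 and 23441 Snf2h regions on these chromosomes. The functions were tested on made-up lists with known answers.

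Comparisons among regions up to 300 bp wide were added after the data were seen. The class and its description were chosen with earlier results of these data known. Regions named are the 8 strongest up to 3 kb wide with no empty-vector region within 1 kb, 4 longest chains, 3 widest, 5 strongest with Snf2h in both lines, 3 farthest from a region of all 6 lists and 3 bins richest in private regions, leaving out chromosome 18. The other 22 samples of the 30 were not analysed here.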

Additional observations from a re-analysis of the deposited data

How the results depend on the processing

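The count of BORIS-private regions, 3544, stayed within 1.5 times at −log10 q ≥ 5, equal list lengths (80268 regions), no empty-vector region within 1 kb, summit clusters, or without chromosomes 4 and 14 (2814 to 3700). It moved to 1569 at −log10 q ≥ 10, of which 458 are private regions of the report, to 10260 with at least 2 BORIS lists, and to 6423, 9216 and 5884 without SMC1, RAD21 and SMC3, as weaker rules admit more. Of the 3544, 2106 (59.4%) were kept at −log10 q ≥ 5, 2680 (75.6%) at equal list lengths and 99% with summit clusters. At least 99% were also kept without any 1 antibody, which the rule nearly fixes, because leaving out an antibody only removes requirements.

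Of the shares, that of summits within 100 bp (93.9%) moved to 96.3% at −log10 q ≥ 10, 95.5% at equal lengths and 95% with the 1 kb distance, was 98.3% in regions up to 300 bp wide, a comparison added after the data were seen, and was 73.8% within 50 bp and 98.4% within 200 bp. The share within 10 kb of a shared region (57.6%) was 47.9% at −log10 q ≥ 10, 51.4% with the 1 kb distance, 62.7% without RAD21, and 38.5% and 75.7% for 5 and 20 kb. The share in chains (21.6%) follows the number of regions. It was 10.8% at −log10 q ≥ 10, 17.0% with the 1 kb distance, 39.8% with 2 lists, 28.9% without SMC1, 38.6% without RAD21, 28.9% without SMC3, 19.4% without chromosomes 4 and 14, and 11.8% and 39.4% for gaps of 10 and 50 kb.

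Snf2h overlap (2.12%) was 3.38% at −log10 q ≥ 10, 1.53% with the 1 kb distance, 2.97% without SMC1, 1.55% at the RAD21 summit and 0.536% with strong Snf2h regions only. In each of these settings it was below the share in shared regions, which was 17.7% at −log10 q ≥ 10 and 1.97% with strong Snf2h regions only. Where a setting does not itself change the number of regions, the cause of a move was not tested. In all, 19 values stayed and 30 moved. With 1 list per antibody and median pileups of 13 to 18 fragments, absence from the empty-vector lists does not show absence of cohesin. The cohesin lists pair by antibody across the 2 lines, but no group has more than 1 list and the labels give no replicate numbers. No test, paired or not, was run. Lists of the same antibody were set side by side only in the pileup ratios.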
